A study of Glycine max with 4 samples.

Results

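Chalcone synthase and isoflavone synthase genes of soybean were followed through 4 RNA-seq libraries. The genes were taken by identifier, with the model suffix dropped. All 7 were found among the 69145 genes listed in both deposited tables: the chalcone synthases CHS1 (Glyma08g11620), CHS2 (Glyma05g28610), CHS6 (Glyma09g08780), CHS7 (Glyma01g43880) and CHS8 (Glyma11g01350), and the isoflavone synthases IFS1 (Glyma07g32330) and IFS2 (Glyma13g24200). By their identifiers the chalcone synthases lie on chromosomes 8, 5, 9, 1 and 11 and the isoflavone synthases on chromosomes 7 and 13. The files give no gene names. The RefSeq table for assembly Glycine_max_v4.0 holds all 7 symbols on the same chromosomes, but its entry for IFS1 carries IFS2 as a synonym and its entry for IFS2 carries IFS1, so the names used here follow the identifiers.

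Total RNA came from the isolines Clark standard, the wild type with trifoliate leaves, and Clark five-foliate, a mutant with extra leaflets. Isolines share most of their genome and differ at a trait. Young shoot tips and vegetative buds were taken from several greenhouse plants of each line at 4 weeks and freeze-dried, and each of the 4 combinations of line and tissue had 1 library. These are called the standard tip, mutant tip, standard bud and mutant bud below. Differences between lines or tissues are thus differences between single libraries, with no replicates. Levels are RPKM, reads scaled by the length of the gene model and by the library total. Totals recovered from the values ranged from 97532923 to 152791817 alignments per library. The intervals below are exact 95% intervals of the recovered reads and cover counting error only. They belong to a level, to a ratio between libraries or to a ratio between genes. The tissue labels could not be checked against marker genes, because the identifiers have no names.

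Chalcone synthase joins an activated coumaric acid with units of malonyl-CoA into a chalcone, the first step of the flavonoid pathway that leads to flavonols, anthocyanins and isoflavones. Isoflavone synthase is a cytochrome P450 that moves the aryl ring of a flavanone and so opens the branch to isoflavones, which legumes use in defence and in signalling to root nodule bacteria. In soybean the chalcone synthases form a family of very similar copies, several of them clustered on chromosome 8, where small RNAs from the cluster silence pigment in the seed coat. CHS7 and CHS8 are the copies most often linked with isoflavone production in seeds. Reads from such copies can match several genes, and how the authors counted them is not given in the sources used here, so the level of a single chalcone synthase is uncertain.

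CHS1, CHS7 and CHS8 were the abundant chalcone synthases in each library, and both isoflavone synthases were below these 3 in every library. CHS1 had 21.9 RPKM in the standard tip, 34.9 RPKM in the mutant tip, and in the buds 18.9 RPKM (standard) and 14.6 RPKM (mutant). The mutant tip stood above the other 3 libraries. CHS2 had 8.26, 13.0, 7.93 and 7.44 RPKM in the same order of libraries, and CHS6 had 4.59, 7.09, 4.10 and 4.24 RPKM. Both were again highest in the mutant tip, and their other 3 libraries lay close together. CHS7 had 21.1, 18.8, 15.3 and 9.28 RPKM in that order. CHS8 had 20.9, 21.1, 15.4 and 9.13 RPKM, so CHS7 and CHS8 were both lowest in the mutant bud and differed little between the tips.

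IFS1 had 4.12 RPKM in the standard tip and 11.6 RPKM in the mutant tip, against 0.963 RPKM (standard) and 1.24 RPKM (mutant) in the buds. Its highest library was 12.0 times its lowest, the widest span of the 7 genes. IFS2 had 3.14 RPKM in the standard tip and 1.31 RPKM in the mutant tip, and in the buds 0.692 RPKM (standard) and 1.03 RPKM (mutant), a span of 4.54 times. For the chalcone synthases the span was between 1.73 times for CHS6 and 2.39 times for CHS1. The 142 reads of IFS2 in the standard bud were the fewest behind any of these values and gave an interval of 0.583 to 0.815 RPKM.

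**Figure D1:**
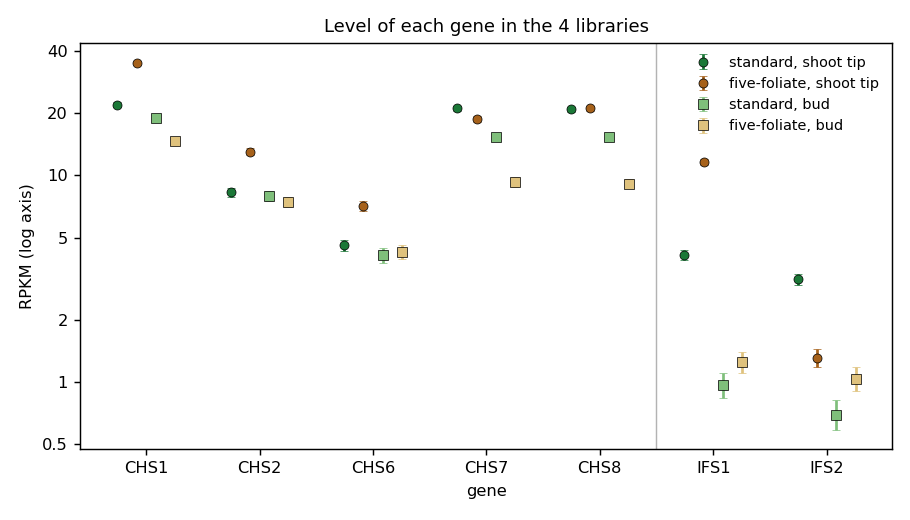
RPKM on a log axis for the 5 chalcone synthases (left of the line) and 2 isoflavone synthases in the 4 libraries; bars are 95% Poisson intervals of the reads, many smaller than the point. CHS1, CHS2, CHS6 and IFS1 are highest in the five-foliate (mutant) tip, CHS7 and IFS2 in the standard tip, and CHS8 is about level in both.

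Several neighbours in this order of levels could not be told apart. In the standard tip the ratio of CHS7 to CHS8 per length was 1.01 (interval 0.975 to 1.06) and that of CHS1 to CHS7 was 1.04 (0.996 to 1.08). CHS1 stood clear of CHS7 in the other 3 libraries, with ratios of 1.86 in the mutant tip, 1.24 in the standard bud, 1.57 in the mutant bud and no interval reaching 1. CHS2 was 1.75 to 1.94 times CHS6 in every library. Among genes at 1 RPKM or more, CHS1 exceeded 89.6% in the standard tip and 93.2% in the mutant tip. In the mutant bud IFS1 exceeded 4.73% of such genes and IFS2 0.638%.

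The first comparison asked how the lines differed in the shoot tip. IFS1 was 2.81-fold higher in the mutant tip (interval 2.64 to 2.995, from 1355 and 3484 reads), and IFS2 was 2.40-fold lower there (2.13 to 2.70, from 1009 and 385 reads). The 2 genes catalyse the same reaction and differed in opposite directions. CHS1 was 1.59-fold higher (1.54 to 1.65), CHS2 was 1.58-fold higher (1.48 to 1.67) and CHS6 was 1.55-fold higher (1.43 to 1.68) in the five-foliate library. CHS7 was 1.13-fold lower (1.08 to 1.17), and for CHS8 the five-foliate level was 1.01 times the standard level (0.974 to 1.05). In bulk tissue, fewer cells of a type and less RNA per cell cannot be told apart.

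As deposited, the median gene had a higher RPKM in the mutant tip, and the chalcone synthases have to be read against that shift. RPKM is scaled by the library total, so the shift does not show that genes as a whole were expressed more. The log2 ratio of (RPKM + 1), a scale that understates differences of low genes, had a median of 0.34 over the 36537 genes that reached 1 RPKM in 1 or both tip libraries. All 7 genes passed this filter, and their median was 0.54. Relative to the median of all genes, the log2 ratio was 0.31 for CHS1, 0.26 for CHS2, 0.20 for CHS6, -0.50 for CHS7 and -0.32 for CHS8. CHS8 thus lay near equality between the lines but below the median gene, with 26.1% of genes at a lower ratio. The log2 ratio relative to that median was 0.96 for IFS1, above 96.6% of genes before and after centring. For IFS2 it was -1.18, above 6.09% of genes.

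At a threshold of 2-fold on the log2(RPKM + 1) scale, 1 of the 7 genes was called, IFS1, where 12.3% of all genes were called in either direction and 7.61% as higher. After centring, IFS1 lay just under the threshold and IFS2 passed it in the other direction. Thus 1 gene was called again, where 11.2% of all genes were called. The same exchange occurred with upper-quartile scaling, where 10.9% of all genes were called. The split of all called genes turned as well: as deposited 2780 were higher and 1717 lower in the mutant tip, after centring 1108 were higher and 2997 lower, and with upper-quartile scaling 1354 were higher and 2638 lower.

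**Figure D2:**
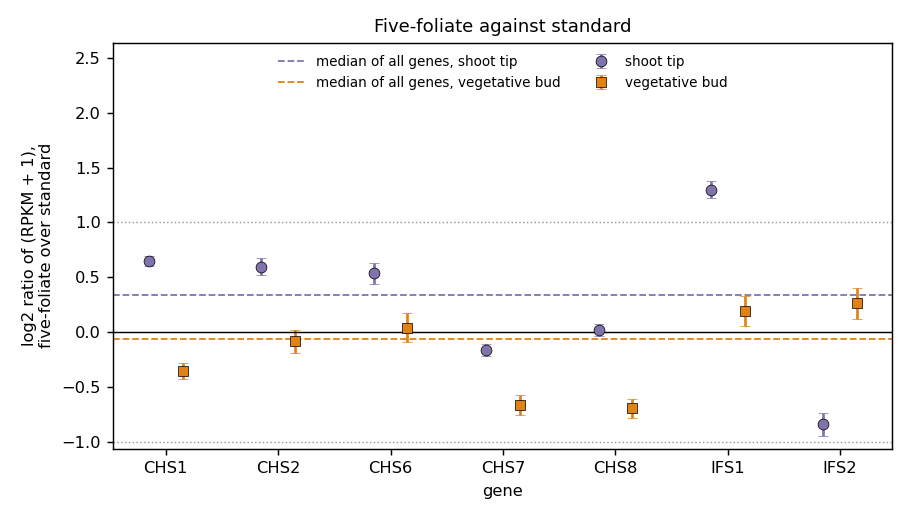
Log2 ratio of (RPKM + 1), five-foliate over standard, in shoot tip (circles) and bud (squares), with 95% counting intervals; dashed lines are the medians of all genes passing the filter and dotted lines the 2-fold threshold. In the shoot tip CHS1, CHS2 and CHS6 lie above the dashed line and CHS7 and CHS8 below it, while IFS1 at 1.30 and IFS2 at -0.84 lie on opposite sides of 0.

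A ratio between 2 genes of the same library does not depend on how the libraries were scaled. IFS1 was 1.31 times IFS2 in the standard tip (interval 1.21 to 1.43) and 8.86 times IFS2 in the mutant tip (7.97 to 9.87). In the standard bud the ratio was 1.39 (1.12 to 1.74) and in the mutant bud 1.21 (1.01 to 1.44). The mutant tip stood apart, and the other 3 intervals overlapped. The ratio was 6.74 times larger in the five-foliate than in the standard tip (5.89 to 7.72), whereas between the buds its interval reached 1 (0.866 times, 0.649 to 1.15). As a share of the summed RPKM of both genes, IFS1 held 56.8% in the standard tip, 89.9% in the mutant tip, 58.2% and 54.7% in the standard and mutant buds. The summed level itself was 7.26, 12.9, 1.65 and 2.27 RPKM in these libraries, so the mutant tip had both the highest sum and the most uneven one.

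By the same measure CHS1, CHS2 and CHS6 kept close ratios to each other between the tips, and CHS7 and CHS8 differed from them. The ratio of CHS1 to CHS2 differed little between the shoot tips, 2.65 in the standard and 2.68 in the five-foliate library, a factor of 1.01 (0.944 to 1.08). The factor for CHS2 to CHS6 was 1.02 (0.920 to 1.13). The ratio of CHS1 to CHS7, by contrast, was 1.79 times larger in the mutant tip (1.70 to 1.90), and that of CHS1 to CHS8 was 1.57 times larger (1.49 to 1.66). CHS7 to CHS8 was 1.14-fold lower there (1.08 to 1.21). CHS1 held 28.5% of the summed chalcone synthase RPKM in the standard tip and 36.8% in the mutant tip, while CHS7 and CHS8 held 27.5% and 27.2% in the former and 19.8% and 22.3% in the latter. These shares take 1 model per gene. When the RPKM of both CHS8 models were added, CHS8 was the largest in all 4 libraries. It then held 42.3% in the standard and 36.0% in the mutant tip, against 22.6% and 30.3% for CHS1. The CHS8 models had similar reads, 5323 and 5050 in the standard tip. Whether the same reads were counted in both, which would inflate that sum, was not tested. The sum of the 5 genes was 76.8 RPKM for the standard and 94.9 RPKM for the mutant tip, 1.24 times as much. That sum was not centred, and the median gene was also higher in the mutant tip, with a log2 ratio of 0.34.

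**Figure D3:**
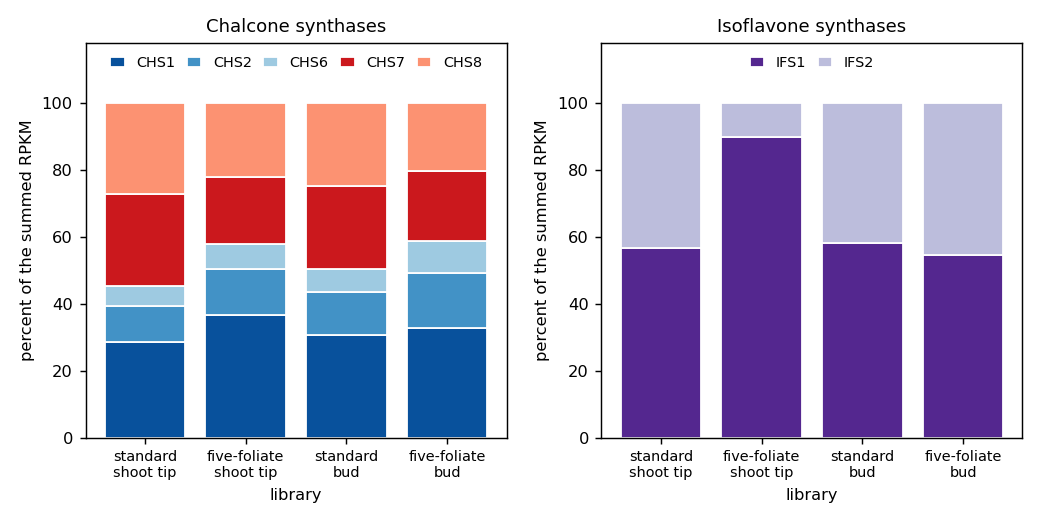
Share of each gene in the summed RPKM of the 5 chalcone synthases (left) and of the 2 isoflavone synthases (right) in each library, stacked to 100 percent. IFS1 takes 89.9% in the mutant tip and 54.7% to 58.2% elsewhere, and CHS1, with 1 model per gene, takes 36.8% there.

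The vegetative bud was compared in the same way, and few genes differed between its libraries. CHS7 was 1.65-fold lower in the mutant bud (interval 1.54 to 1.76, from 2232 and 1439 reads) and CHS8 was 1.68-fold lower (1.58 to 1.80, from 2375 and 1499 reads). CHS1 was 1.30-fold lower (1.23 to 1.37). CHS2, at 0.937 times the standard level (0.863 to 1.02), and CHS6, at 1.03 times (0.923 to 1.16), had intervals that reached 1. IFS1 was 1.29-fold higher (1.07 to 1.56) and IFS2 was 1.49-fold higher (1.20 to 1.85) in the mutant bud. The isoflavone synthases thus had the same direction in the bud, at levels near 1 RPKM, where a few reads weigh more.

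In the bud 0 of the 7 genes reached 2-fold, where 0.916% of 38332 genes did. The median log2 ratio was -0.08 for the 7 genes and -0.06 for all genes tested. CHS7 and CHS8 lay far down the range without reaching the threshold: 0.503% of genes had a lower ratio than CHS7 and 0.470% a lower one than CHS8. CHS1 had 4.08% of genes below it. The summed chalcone synthase level was 61.6 RPKM for the standard and 44.7 RPKM for the mutant bud, 1.38-fold lower. CHS2 and CHS6 together with CHS1 made up more of that sum in the mutant bud, where CHS7 held 20.8% against 24.8% and CHS8 20.4% against 24.9% in the standard bud.

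Genotype differences in the 2 tissues can be set against each other gene by gene. For CHS1 the ratio of five-foliate to standard in the tip was 2.07 times that in the bud (interval 1.94 to 2.21), and the factor for the other chalcone synthases lay between 1.46 for CHS7 and 1.71 for CHS8. For IFS1 it was 2.18 (1.79 to 2.65). IFS2 went the other way, with a tip ratio 3.57 times smaller than its bud ratio (2.79 to 4.58). These factors include the shift of the median gene in the shoot tip, and with 1 library per group they were not tested against plants.

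A limma fit of log2(RPKM + 1) on genotype, with tissue as a further term, took in both tissues and 34421 genes. It called 0 of the 7 genes at an adjusted p under 0.05, where 0.41% of all genes were called, and 1 of the 7, IFS1, at an unadjusted p under 0.05, as were 3.74% of all genes (1289). The fitted log2 ratio of five-foliate to standard was 0.74 for IFS1, with a standard error of 0.376 and an adjusted p of 1.00 in limma. For the chalcone synthases the fitted ratios ran from -0.41 for CHS7 to 0.29 for CHS6, and for IFS2 the ratio was -0.29. The fit had 1 residual degree of freedom and gave every gene the same standard error, pooled over all genes. Its residual was the difference of the genotype ratio between tissues, so it did not measure the spread between plants. Differences of opposite sign in the tissues, as in IFS2, cancel in the fitted ratio.

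In the last comparison bud was set against shoot tip within a line, and all 7 genes were lower in the bud in both lines. The libraries of each tissue were deposited together, apart from those of the other tissue. A difference of tissue and any other difference between these sets cannot be told apart. In the standard line IFS1 was 4.28-fold lower in the bud (interval 3.69 to 4.99) and IFS2 was 4.54-fold lower (3.80 to 5.45). The chalcone synthases differed less: CHS7 was 1.38-fold lower (1.31 to 1.45), CHS8 was 1.36-fold lower (1.29 to 1.43), CHS1 was 1.16-fold lower (1.10 to 1.21) and CHS6 was 1.12-fold lower (1.01 to 1.24). CHS2 was 1.04-fold lower, with an interval that reached 1 (0.967 to 1.12). Both isoflavone synthases passed the 2-fold threshold as lower, where 29.7% of all genes were called in either direction and 9% as lower. That split also moved with the scaling: 3539 genes were lower and 8144 higher in the bud as deposited, 5747 and 3586 after centring, and 4854 and 4815 with upper-quartile scaling. The median log2 ratio was -0.42 for the 7 genes and 0.47 for all 39343 genes tested, on opposite sides of 0.

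In the five-foliate line IFS1 was 9.32-fold lower in the bud (8.25 to 10.6), with 0.379% of genes below it, and IFS2 was 1.27-fold lower (1.07 to 1.50). CHS1 was 2.39-fold lower (2.28 to 2.51), CHS8 was 2.32-fold lower (2.18 to 2.46) and CHS7 was 2.02-fold lower (1.90 to 2.15). CHS2 was 1.75-fold lower (1.63 to 1.88) and CHS6 was 1.67-fold lower (1.52 to 1.84). IFS1, CHS1 and CHS8 passed the threshold as lower, 3 of 7, where 17.9% of 39042 genes were called in either direction and 7.92% as lower. The median log2 ratio was -0.94 for the 7 genes and 0.07 for all genes. The tissue and genotype comparisons share libraries, and the tissues stand in separate tables with the same unit, so the high IFS1 level of the mutant tip enters both its genotype and its tissue ratio.

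**Figure D4:**
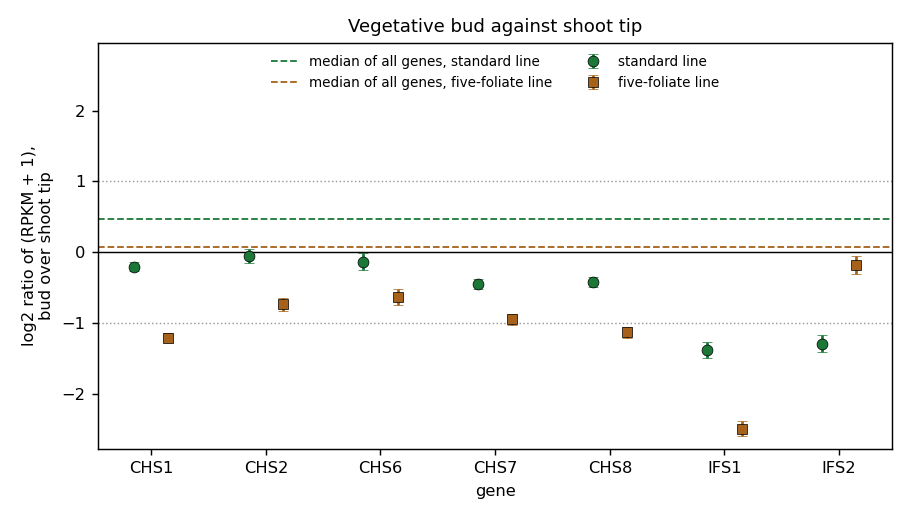
Log2 ratio of (RPKM + 1), bud over shoot tip, in the standard (circles) and five-foliate line (squares), with 95% counting intervals; dashed lines are the medians of all genes passing the filter, dotted lines the 2-fold threshold. Every point lies below 0, from -0.05 for CHS2 in the standard line to -2.49 for IFS1 in the five-foliate line.

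The genes next to the 7 by identifier were examined in windows of 10 listed genes on each side. On chromosome 8, 5 of the 20 genes around CHS1 had levels within 2-fold of CHS1 in all 4 libraries, a limit chosen after their values were seen. The share of all genes within that limit was not counted, so whether 5 of 20 is unusual was not tested. They had 15.8 to 21.4 RPKM in the standard tip, 24.1 to 32.9 RPKM in the mutant tip and, in the buds, 13.4 to 18.0 RPKM (standard) and 10.9 to 14.7 RPKM (mutant). Their genotype folds were 1.52 to 1.56 in the shoot tip, close to the 1.59 of CHS1, and they were 1.19-fold to 1.26-fold lower in the mutant bud, against 1.30-fold for CHS1. Assembly Glycine_max_v4.0 lists 9 chalcone synthase symbols on chromosome 8, with CHS3 and CHS9 on either side of CHS1, but 0 identifiers of the files match that table, so these neighbours were not named. None of the 7 genes had values identical to another gene in all 4 libraries. Whether copies share reads was not tested.

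IFS1 also had a neighbour with its pattern. The gene next above it by identifier had 3.12 RPKM in the standard tip, 8.55 RPKM in the mutant tip, and in the buds 0.765 RPKM (standard) and 0.978 RPKM (mutant). That is 0.737 to 0.794 times the IFS1 level in each library, and its mutant tip was likewise 2.74-fold higher (interval 2.55 to 2.94). The gene next below IFS1, by contrast, had 2.52 to 3.35 RPKM in all 4 libraries. The genes on either side of IFS2 had at most 0.402 RPKM in any library. Whether the IFS1 model and the gene above it overlap or share reads was not tested.

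Over the windows of all 7 genes, 91 of 140 neighbours passed the filter in the shoot tip, and 18.7% of these were at least 2-fold different, against 12.3% of all genes. The share was 14% in windows of 5 genes on each side and 13.3% in windows of 20. Their median log2 ratio was 0.50, against 0.34 for all genes, and it was 0.89 around IFS1 and 0.93 around IFS2, where 4 of 12 and 4 of 9 neighbours were called. All 4 called around IFS1 were higher in the mutant tip, as IFS1 was, and 3 of the 4 around IFS2 were higher, where IFS2 itself was lower. Some windows held genes of near-matching levels, so they are not separate observations. Place -3 from IFS1 had 2.25, 6.69, 17.9 and 15.7 RPKM, and place 4 from IFS2 had 2.51, 7.40, 18.7 and 17.0 RPKM, in the order used above. The genes at place 6 from CHS7 and from CHS8 also had close levels. Whether such genes are copies of each other was not tested. In the bud, 0 of 91 neighbours reached 2-fold, where 0.916% of all genes did. Their median was -0.08, against -0.06 for all genes.

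**Figure D5:**
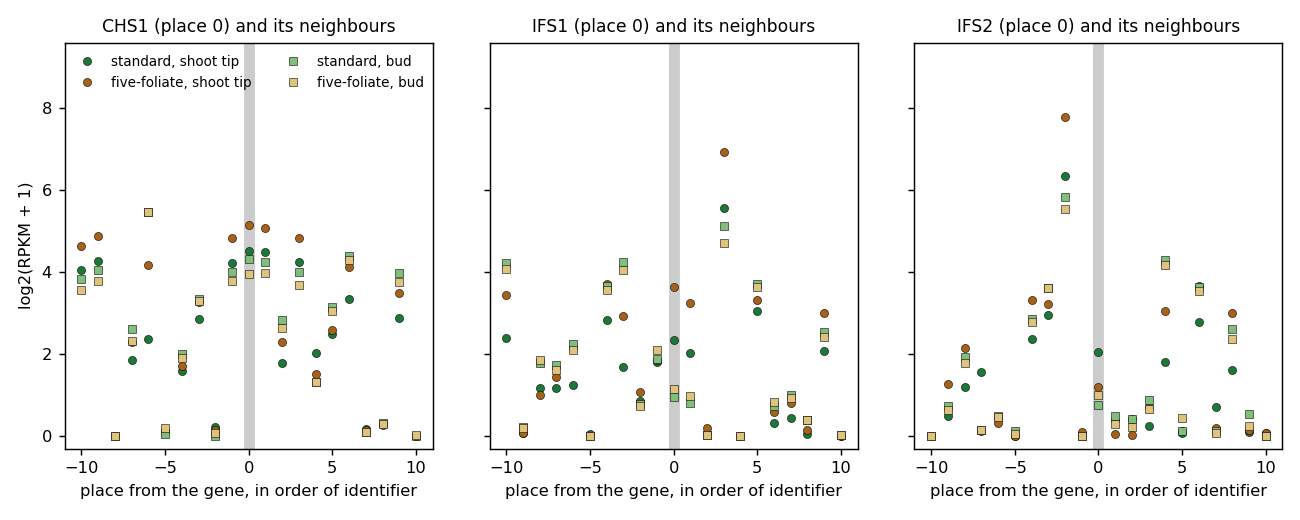
Log2(RPKM + 1) of CHS1, IFS1 and IFS2 (place 0, shaded) and of the 10 genes listed on each side, in order of identifier, for the 4 libraries. Around CHS1 the genes at places -10, -9, -1, 1 and 3 show its order of libraries. The gene at place 1 from IFS1 shows the order of IFS1, and the genes beside IFS2 are near 0.

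Genes with the most similar course over the 4 libraries were found by the distance between centred log2(RPKM + 1) values among 30632 genes at 1 RPKM or more in every library. Nearest to the mean course of the 5 chalcone synthases were Glyma19g29540 on chromosome 19 (distance 0.0528), with 11.6, 15.7, 9.99 and 7.62 RPKM in the order used above, and Glyma06g06080 on chromosome 6 (distance 0.0836). As many as 3274 genes lay within a distance of 0.5, so such a course was common. Nearest to the mean of the isoflavone synthases were Glyma17g00650 on chromosome 17 (distance 0.0962), with 5.94, 7.12, 1.79 and 2.00 RPKM, and Glyma10g42700 on chromosome 10 (distance 0.126), and 692 genes lay within 0.5. This mean describes neither gene well, since the courses of IFS1 and IFS2 were 1.93 apart, the largest distance between any pair of the 7. CHS2 and CHS6 were 0.0979 apart and CHS7 and CHS8 were 0.152 apart, the smallest distances, while CHS1 was 0.367 from CHS2 and 0.510 from CHS8. CHS7 was 0.741 from CHS2 and 0.768 from CHS6, both above 0.5. The mean of the chalcone synthases thus also joins unlike courses.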

How the data were processed

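The authors deposited RPKM values in 2 tables, 1 per tissue, for 78773 gene models. Reads were aligned with Bowtie, per the submitters' processing notes. No version, build or annotation release was given in the sources used here, nor how multiply matching reads were counted. Rows without an identifier (708957) and 7 empty columns were dropped. Each gene was represented by its model of highest mean RPKM, and CHS8 alone of the 7 had more than 1 model.

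Whole reads were recovered from the RPKM values by searching for library totals and for a model length of 20 to 20000 bases that made all 4 values whole within 0.0005 reads. This succeeded for 99.986% of the 62593 models detected in all 4 libraries, against 0% of 1000 models with shifted values. On simulated data all 4 totals and the reads of 96.4% of 2000 models were recovered. The lengths found were 1436 to 1585 bases for the chalcone synthases, 2150 for IFS1 and 2105 for IFS2. In a model of 1 kb, 3 reads correspond to 0.0196 to 0.0308 RPKM. Fold intervals are exact binomial (Clopper-Pearson), levels have exact Poisson intervals, and intervals of a change in ratio between genes are conditional exact intervals of an odds ratio.

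Ratios used a pseudocount of 1 and genes reaching 1 RPKM in 1 or both libraries compared. limma 3.58.1 (R 4.3.3) used lmFit and eBayes with Benjamini-Hochberg adjustment over genes with 1 RPKM or more in each tissue. Data were simulated over 34417 genes with an assumed dispersion of 0.02 and with each change equal in both tissues. There limma found 60.5% of 200 changes of 2-fold with 4 false calls. It found 99.0% of 4-fold changes with 5, and made 0 calls with 0 changed. The real fit had differences between tissues in its residual and a standard error of 0.376. The simulated shares thus do not give the power of the real fit. Other steps used numba 0.67.0, matplotlib 3.10.9, SciPy 1.17.1, pandas 2.3.3 and numpy 2.4.6 in Python 3.11.15.

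The genes, comparisons and lists were chosen with earlier results of these data known. Named genes were the 7 and, by rule, the 2 nearest in course to each family. A list of other flavonoid pathway genes needed names and was not applied. The alternatives tried were a 5 RPKM filter or none, pseudocounts of 0.1 and 5, centring, upper-quartile scaling, summed models, a 3-fold threshold, limma without tissue, and windows of 5 and 20 genes.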

Additional observations from a re-analysis of the deposited data

Results flagged for a closer look

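The sign of the genotype difference was opposite in the tissues, with counting intervals clear of 1 in both, for CHS1 and IFS2. CHS1 in the five-foliate line was at 1.59 times the standard level in the shoot tip and at 0.770 times in the bud. IFS2 was at 0.417 times the standard level in the shoot tip and at 1.49 times in the bud. The median log2 ratio of all genes also had opposite signs, 0.34 in the shoot tip and -0.06 in the bud, the directions of CHS1. Relative to these medians CHS1 was at 0.31 and -0.29, and IFS2 at -1.18 and 0.33. How many of all genes changed sign between tissues was not counted. With 1 library per group the difference between tissues was not tested against plants.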

How the results depend on the processing

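In the shoot tip the number of the 7 genes at least 2-fold different between lines was 1 as reported, 2 at pseudocount 0.1, 0 at pseudocount 5 and 0 at a 3-fold threshold. The shares of all genes called in these settings were 12.3%, 21.2%, 4.23% and 3.31%. Between bud and shoot tip the number went from 2 to 0 in the standard line at pseudocount 5, with the 5 RPKM filter, which IFS1 and IFS2 do not pass, and at 3-fold. The share of all genes called there was 29.7% as reported and 11.8%, 37.1% and 12.3% in these settings. In the five-foliate line the number went from 3 to 1 at 3-fold and 2 at pseudocount 5, and to 4, with CHS7, at pseudocount 0.1 and with centred ratios. The share of all genes called there was 17.9% as reported, 6.34% at 3-fold and 6.57% at pseudocount 5. It was 27.1% at pseudocount 0.1 and 17.7% with centred ratios. The count for the bud genotype comparison was 0 in every setting, where 0.201% to 1.63% of all genes were called. limma called 141 of all genes as reported, 245 at pseudocount 5, 47 with the 5 RPKM filter, 0 without a filter, 0 with centred values and 0 with no replicate block, that is without tissue, and 0 of the 7 genes in each. The cause was not tested. With summed models, which add the RPKM of both CHS8 models, CHS1 held 22.6%, 30.3%, 24.8% and 27.3% of the chalcone synthase level in the 4 libraries. CHS8, the largest in each by that sum, held 42.3%, 36.0%, 39.4% and 33.4%. Whether the same reads were counted in both CHS8 models was not tested. Over all genes, 2-fold counts at pseudocounts of 0.1 and 5 and at a 3-fold threshold were 7759, 1544 and 1210 in the shoot tip (4497 as reported) and 623, 77 and 129 in the bud (351, and 163 with a filter of 5 RPKM). Between tissues the last 2 settings gave 4630 and 4851 in the standard line (11683) and 2566 and 2474 in the five-foliate line (7003), where a pseudocount of 0.1 gave 10579. Of 188 recomputed log2 ratios of the 7 genes, 133 stayed inside the counting interval; 2 changed sign, none of a called gene. The limma fit with tissue as a term is the paired fit of the lines; no library could be left out, since each group has 1.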
